A study of Mus musculus with 17 samples.

Results

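The genes described here carry the names of proteins of the cytosolic ribosome. They were chosen by name: protein-coding rows of the count table whose symbol is Rpl, Rps or Rplp followed by a number and, in some, the letters a, x, y or l, without the S6 kinase genes (Rps6k), and with Rpsa added. The rule gave 84 genes of the 56748 in the table. By name alone, 49 were placed in the large subunit, 32 in the small subunit and 3 in the stalk (Rplp0, Rplp1 and Rplp2). Fau and Rack1 also encode ribosomal proteins but fall outside the names, and the annotation in the table calls Rps4l a pseudogene, so these are kept apart. RNA-seq was measured in heart tissue of 17 mice aged 12 to 16 months, 8 Ctrl and 9 hMut, with 1 library per heart and no treatment. The hMut mice were homozygous for the Polg iMut allele and carried 1 copy of the Ckmm-cre transgene. The iMut allele holds a loxP-flanked wild-type Polg cDNA of exons 3 to 23 with a polyadenylation signal in intron 2, ahead of a mutated exon 3, so that excision by cre switches expression to a proofreading-deficient mitochondrial DNA polymerase. The Ckmm promoter drives cre in heart and skeletal muscle cells and not in the other cell types of the heart. Counts per gene do not show which Polg allele was expressed, so they do not check the genotype labels. All mice were on the C57BL/6N background. The exact genotype of the Ctrl mice and the sex of each mouse are not given in the sources used here.

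A cytosolic ribosome joins a small subunit, which decodes the mRNA, to a large subunit, which forms the peptide bond. Each subunit is built from ribosomal RNA and a fixed set of proteins. Most ribosomal protein mRNAs begin with a C followed by a run of pyrimidines, the terminal oligopyrimidine (TOP) tract, through which mTORC1 controls their translation together with those of several elongation factors. A few members have a second gene copy with its own pattern of use, and in the mouse Rpl3l is known to be used beside Rpl3 mainly in heart and skeletal muscle.

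The start regions of the genes show how far the members share that tract. In GRCm39, with the GENCODE vM39 canonical transcript of each gene, the 70 bases from 20 before to 50 after the annotated start were searched on the strand of the gene for a run of 8 or more pyrimidines that begins with C. All 84 members matched by gene ID. Such a run was found in 38 members (45.2%) and in 20.5% of the 21686 other protein-coding genes, and the run was 20 bases long in the member where it was longest. The letters CTTTCC, which can lie inside such a run, were found on the strand of the gene in 12 members (14.3%, against 3.07% of the other genes) and on the opposite strand in 4 members (4.76%, against 3.06%). The annotated first base itself was a C followed by 4 pyrimidines in 7 members (8.33%, against 3.60%), so in most members the tract, where present, did not sit at the annotated start. Among the 78 mitochondrial ribosomal protein genes with a window, 20.5% held a run of 8. The sequences shown are 30 bases from each of 7 members that passed the test for a higher level in hMut, and from Rpl3l, written 5′ to 3′ on the strand of the gene. Capitals mark the longest run of 8 or more pyrimidines that begins with C, and where the window held none, the bases from 10 before the annotated start are given without capitals. In Rpl39 the run begins at the first base of the window searched.
Rpl10 (chrX:73314453-73314482, plus strand): gtgggagcgtCTCTTTTCCTCTggcgcggt
Rpsa (chr9:119956769-119956798, plus strand): agcggaagttCTCCCTTTTTgcttagcctg
Rpl13a (chr7:44778148-44778177, minus strand): tgcgacaagaCCTCCTCCTTTCCCaggcgg
Rpl39 (chrX:36349121-36349150, minus strand): CCTTTTCCCgccctcctcagagttggtccc
Rplp1 (chr9:61821853-61821882, minus strand): cgagtcgggcatcgattggtcggcgcggtc
Rps26 (chr10:128462617-128462646, minus strand): tgttatagagccttgtaatcacttcctggt
Rpl3 (chr15:79967588-79967617, minus strand): tcgcacgctcagggggcggagccatcactt
Rpl3l (chr17:24946741-24946770, plus strand): tggccaaggagcctgccaggtgctaaatct
Over all 84 members, the run was present in 5 of the 8 that passed and in 33 of the other 76. A window without it says only that these letters are not near the annotated start.

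Total counts per library lay between 32915159 and 46486964. Genes encoded by mtDNA took 23.5% to 30.9% of the counts in Ctrl and 15.9% to 23.02% in hMut. Levels are therefore given as CPM, the counts scaled to a library size corrected by the TMM method, which lowers the weight of such abundant genes in the comparison of the rest. Counts of Xist and Y-linked genes assigned 3 Ctrl and 2 hMut hearts to females. The 10 cardiomyocyte markers, none of which was at 0, summed to 56339 to 68605 CPM in Ctrl and 54859 to 67284 CPM in 7 hMut hearts, but to 42350 CPM in hMut 6 and 41092 CPM in hMut 9. In the same hearts the 8 myeloid markers summed to 1076 and 561 CPM (207 to 310 CPM in Ctrl, 261 to 350 CPM in the other hMut) and the 8 fibroblast markers to 2158 and 1688 CPM (978 to 1150 CPM in Ctrl, 975 to 1256 CPM in the other hMut). No marker of these 3 lists passed the test. Of the 6 endothelial markers, 1 was called higher, and they summed to 738 to 924 CPM in Ctrl and 806 to 1091 CPM in hMut. The 5 erythroid markers summed to 249 to 1378 CPM in Ctrl and 282 to 1088 CPM in hMut, with none called. The 4 atrial markers, of which 2 had enough counts to be tested, summed to 687 CPM in hMut 6 and 425 CPM in hMut 9. Their sum was 38.3 to 166 CPM in Ctrl and 77.7 to 233 CPM in the other hMut hearts. Nppa is on this list, and the paper treats it as a marker of cardiac stress, so the sum does not show atrial tissue alone. Ctrl 3 held 49.2 CPM of the 9 lymphoid markers, where hMut 6 held 65.2 CPM and the lowest Ctrl heart 2.81 CPM. In heart tissue of mixed cell types, fewer cells of a type and less RNA per cell cannot be told apart. Calls of named genes that were lost without hMut 6 and 9 are given with that value beside them.

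Of the 84 members, 81 passed the filter on low counts and were tested. The other 3 are the copies Rpl10l, Rpl36al and Rpl39l, whose highest heart reached 0.113, 0.355 and 0.418 CPM. Levels of different genes are compared per length, as RPKM (CPM per kilobase of the gene length in the table). The Ctrl medians were highest for the stalk protein gene Rplp1 (428 RPKM) and the small subunit genes Rps15 (371 RPKM) and Rps2 (369 RPKM). They were lowest for Rpl21 (2.64 RPKM), Rps10 (0.365 RPKM) and Rpl24 (0.266 RPKM). Reads of a ribosomal protein mRNA can be counted on its copies, and how the counting treated reads with several matches is not stated. Rps10-ps2, a pseudogene, held 1433 counts per library on average where Rps10 held 36.2, and the pseudogenes named after Rpl21 and Rpl17 held 173% and 290% of their parent's counts. Rps10, Rpl24, Rpl13a and Rpl36al each lie under another annotated gene on the same strand that held 0 counts in every library. The levels of these members are therefore uncertain, and over all members the named pseudogenes held 3.64% to 3.99% as many counts as the members themselves.

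Most ribosomal protein genes were slightly higher in the hMut hearts. The log2 fold change of hMut over Ctrl was above 0 for 76 of the 81 tested members, where 50.5% of all 16195 tested genes were above 0, and for 44 of 81 when the libraries were scaled on the summed members themselves, which lowered the median of all genes to -0.09 and that of the members to 0.01. In the other 28 alternative fits, between 72 and 77 members were above 0. The median log2 fold change of the members was 0.10 (quartiles 0.05 and 0.16), and that of all tested genes was 0.00. With the edgeR quasi-likelihood test and a Benjamini-Hochberg adjusted p under 0.05 over all tested genes, 8 members were higher in hMut (9.88% of 81) and 0 were lower. The same rule called 3.48% of all tested genes higher and 1.14% lower. Those genes were not matched to the members in level, and the part of level in the shares called was not tested. At an unadjusted p under 0.05, 37 of the 81 members were higher and 1 was lower. Of all 16195 tested genes, 2347 were higher and 1831 lower at that level. DESeq2 called 16 members higher and 0 lower, beside 6.13% of all genes called higher. With hMut 6 and 9 left out, edgeR called 3 members higher (Rpl10 and Rpl3 among them), beside 1.96% of all genes, and the median of the members was 0.08. Leaving out 1 library at a time gave between 2 and 15 members higher. The 2 came without Ctrl 1 or without hMut 9, where 380 and 329 of all genes were called higher. The 15 came without hMut 2, where 1128 of all genes were, beside 564 in the fit of all hearts. The tests measure the spread between these hearts.

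**Figure D1:**
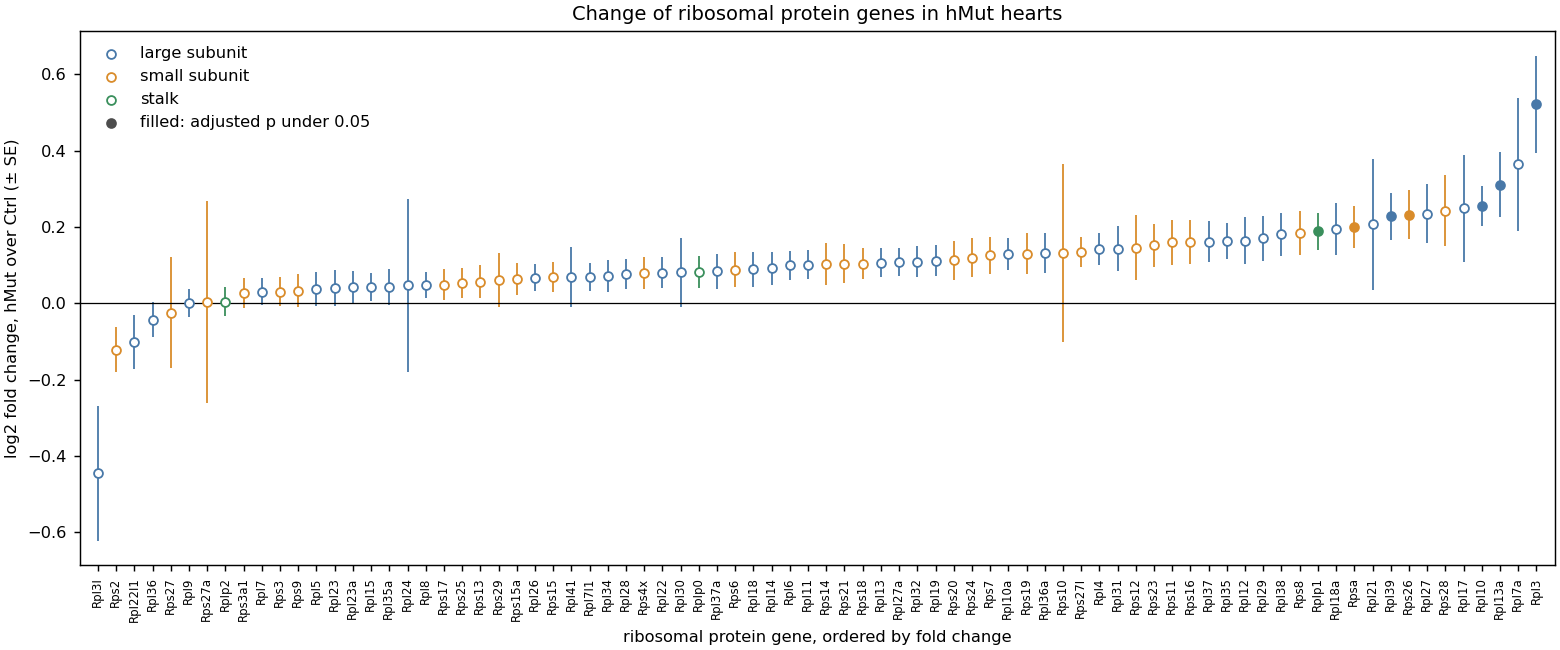
Log2 fold change of hMut (n = 9) over Ctrl (n = 8) for 80 of the 81 tested ribosomal protein genes, with the standard error as a bar, colour for the subunit and filled points for an adjusted p under 0.05 (edgeR). Most points lie a little above 0, with Rpl3 alone at 0.52 on the right and its copy Rpl3l at -0.45 on the left.

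The counts were also split by the parts of the ribosome. Of the 46 large subunit members tested, 4 were called higher with a median log2 fold change of 0.10. Of the 32 small subunit members, 3 were called higher, also with a median of 0.10. In the stalk, 1 of 3 was called, with a median of 0.08. The 77 tested mitochondrial ribosomal protein genes, which build the separate ribosome of the mitochondrion, had 0 calls in either direction by edgeR and a median of -0.05. At an unadjusted p under 0.05, 6 of them were higher and 6 lower, beside 2347 and 1831 of all 16195 tested genes. Other nuclear protein-coding genes whose length lay in the range of the tested members (383 to 6270 bases) had a median of 0.01 over 9496 genes, with 4.05% called higher. Those shorter than the median member (1781 bases) had a median of 0.02 over 1285 genes, with 4.28% called higher. Both sets were chosen by length and not by level.

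The hearts differed in the level of the members as a whole, which is described here with no test. The summed level of all 84 members was 12189 ± 455 CPM (SD, n = 8) in Ctrl, between 11423 and 12671 CPM, and 12984 ± 596 CPM (SD, n = 9) in hMut, between 12177 and 13740 CPM. The ratio of the means was 1.07, and 5 of 9 hMut hearts (4, 6, 7, 8 and 9) lay above every Ctrl heart while the other 4 lay within the Ctrl range. Without hMut 6 and 9 the hMut level was 12803 ± 544 CPM (SD, n = 7) and the ratio 1.05, with 3 of 7 hMut hearts above every Ctrl heart. The ratio over all hearts was 1.20 without the TMM factor, on total counts that include the mtDNA-encoded genes. Set against the mean of the Ctrl hearts for each gene on the log2 scale, the median over the 81 tested members was highest in hMut 9 (0.20), hMut 6 (0.16) and hMut 8 (0.15). It lay between 0.01 and 0.04 in hMut 1, 2, 3 and 5, below the 0.08 of Ctrl 3, the highest Ctrl heart, and it was lowest in Ctrl 1 at -0.10. The median coefficient of variation of the members was 6.07% in Ctrl and 6.73% in hMut, against 11.1% and 15.02% over all tested genes. The genes compared were not matched to the members in level, and the part of level in this difference was not tested.

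Among the large subunit members, Rpl10 gave the smallest p. Its product, which is loaded onto the large subunit late and in the cytoplasm, sits close to the site of peptide bond formation. Rpl10 (chromosome X, 73314418 to 73316741) lay at 190, 206 and 213 CPM in Ctrl (lowest, median and highest) and at 207, 245 and 276 CPM in hMut. Every hMut heart but hMut 2 lay above every Ctrl heart, and the log2 fold change was 0.25 ± 0.05 (SE, edgeR adjusted p = 0.0101). Rpl10 was the member called in all 29 alternative fits, and its log2 fold change without hMut 6 and 9 was 0.20 (edgeR adjusted p = 0.0203).

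Rpl39, a small protein of the wall of the exit tunnel, lay at 36.7, 38.4 and 43.1 CPM in Ctrl and at 39.7, 45.6 and 55.1 CPM in hMut. The groups overlapped, with 6 of 9 hMut hearts above every Ctrl heart and hMut 9 and hMut 6 on top, and the log2 fold change was 0.23 ± 0.06 (SE, edgeR adjusted p = 0.0413). Rpl13a, whose product is also known for a role outside the ribosome in silencing inflammatory mRNAs, lay at 4.94, 5.64 and 6.23 CPM in Ctrl and at 5.23, 7.10 and 8.32 CPM in hMut. All hMut hearts but hMut 2 lay above every Ctrl heart, and the log2 fold change was 0.31 ± 0.09 (SE, edgeR adjusted p = 0.0449). Its level is low for a ribosomal protein gene, at rank 78 of the 81 per length, and Rpl13a is one of the members that lie under another annotated gene. Neither gene passed the threshold without hMut 6 and 9 (edgeR adjusted p = 0.0943 for Rpl39 and 0.111 for Rpl13a).

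The small subunit had 3 calls, of which Rps26 and Rpsa are described. Rps26, which touches the mRNA where it leaves the small subunit, lay at 90.7, 96.5 and 108 CPM in Ctrl and at 97.5, 114 and 139 CPM in hMut. The groups overlapped, with 5 of 9 hMut hearts above every Ctrl heart and the highest values in hMut 9 (139 CPM) and hMut 6 (133 CPM), and the log2 fold change was 0.23 ± 0.06 (SE, edgeR adjusted p = 0.0448). Rpsa, a small subunit protein also described as a laminin receptor, lay at 348, 377 and 402 CPM in Ctrl and at 365, 423 and 476 CPM in hMut. In Rpsa 7 of 9 hMut hearts lay above every Ctrl heart while hMut 1 and hMut 2 lay within the Ctrl range, and the log2 fold change was 0.20 ± 0.06 (SE, edgeR adjusted p = 0.0478). Both missed the threshold without hMut 6 and 9 (edgeR adjusted p = 0.0911 for Rps26 and 0.116 for Rpsa). With sex as a covariate both missed it too (edgeR adjusted p = 0.0626 for Rps26 and 0.0553 for Rpsa). The call of Rpsa was also lost when any single Ctrl heart was left out (edgeR adjusted p between 0.0597 and 0.0866). That of Rps26 was lost without any single Ctrl heart but Ctrl 3 (edgeR adjusted p between 0.0570 and 0.0860).

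Other small subunit genes did not pass. Rps6, the substrate of the S6 kinases downstream of mTORC1, had a log2 fold change of 0.09 ± 0.05 (SE, edgeR adjusted p = 0.231), with 5 of 9 hMut hearts above every Ctrl heart. Rps4x, the X-linked gene, had 0.08 ± 0.04 (SE, edgeR adjusted p = 0.236) and Rps15, which was second in level per length, 0.07 ± 0.04 (SE, edgeR adjusted p = 0.271). Rps2 was one of the 5 members with a value below 0: it lay at 615, 676 and 738 CPM in Ctrl and at 549, 603 and 709 CPM in hMut, with 6 of 9 hMut hearts below every Ctrl heart (log2 fold change -0.12 ± 0.06, SE, edgeR adjusted p = 0.196). Rps10 and Rpl24, the tested members with the fewest reads, had values of 0.13 ± 0.23 and 0.05 ± 0.23 (SE), an error larger than the value in each case.

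The stalk is the flexible arm of the large subunit that recruits the GTPases of translation, with Rplp0 as its base and Rplp1 and Rplp2 bound to it in dimers. Rplp1 lay at 186, 214 and 224 CPM in Ctrl and at 215, 237 and 262 CPM in hMut, with 7 of 9 hMut hearts above every Ctrl heart, and it passed the test (log2 fold change 0.19 ± 0.05, SE, edgeR adjusted p = 0.0344). Its partner Rplp2 lay at 87.0, 94.2 and 96.5 CPM in Ctrl and at 87.7, 92.0 and 102 CPM in hMut, a log2 fold change of 0.00 ± 0.04 (SE, edgeR adjusted p = 0.951). Rplp0 had 0.08 ± 0.04 (SE, edgeR adjusted p = 0.223). The difference between the changes of Rplp1 and Rplp2 was not tested. Rplp1 missed the threshold without hMut 6 and 9 (edgeR adjusted p = 0.0870). It passed with sex as a covariate (edgeR adjusted p = 0.0462). Its call was also lost when Ctrl 1, 4, 5, 7 or 8 or hMut 4, 5, 6, 7 or 9 alone was left out. The edgeR adjusted p in these fits lay between 0.0553 and 0.0694.

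**Figure D2:**
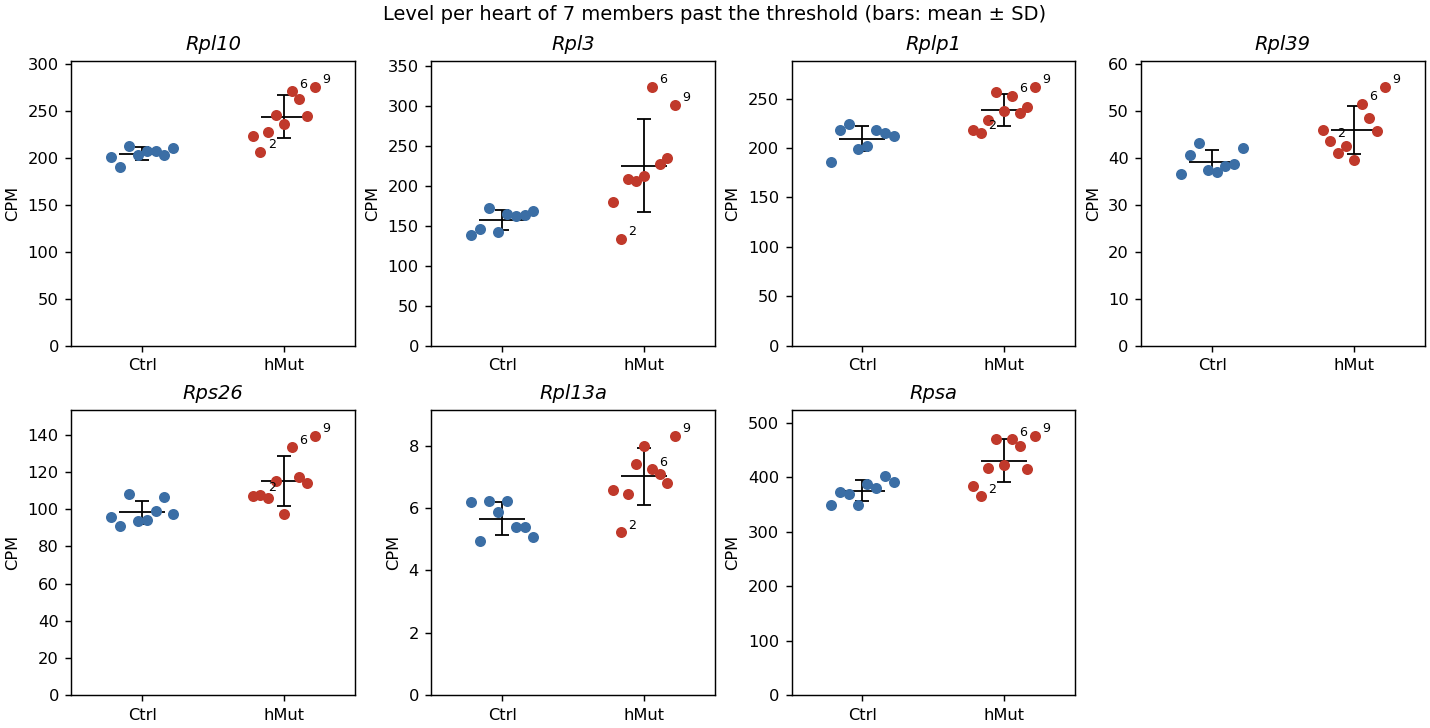
CPM after TMM scaling in each Ctrl (blue, n = 8) and hMut (red, n = 9) heart for 7 ribosomal protein genes with an adjusted p under 0.05, with the mean and SD in black, axes from 0, and hMut 2, 6 and 9 numbered. The groups overlap in each of the 7, and hMut 6 and hMut 9 reach 324 and 302 CPM in Rpl3, where hMut 2 lies below every Ctrl heart at 134 CPM.

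The widest change among the members was in Rpl3 and its muscle copy Rpl3l, whose products take the same place in the large subunit, next to the site where peptide bonds form. Over 1202 aligned coding bases the transcripts of both genes were 74.8% identical. Rpl3 (chromosome 15, 79961992 to 79976069, minus strand) lay at 139, 163 and 172 CPM in Ctrl and at 134, 213 and 324 CPM in hMut. It rose with a log2 fold change of 0.52 ± 0.13 (SE, edgeR adjusted p = 0.0277), with 8 of 9 hMut hearts above every Ctrl heart and hMut 2 below all of them. Without hMut 6 and 9 the value was 0.35 (edgeR adjusted p = 0.0468). The call was lost when Ctrl 1, Ctrl 2 or hMut 9 alone was left out (log2 fold changes 0.50, 0.51 and 0.46, edgeR adjusted p = 0.0562, 0.0540 and 0.0537). The gene overlaps Syngr1 on the opposite strand, which held 1868 counts per library on average against 7420 for Rpl3, and whether the counting used strand is not stated.

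Rpl3l (chromosome 17, 24946794 to 24955117) went the other way. It lay at 177, 199 and 213 CPM in Ctrl and at 63.6, 151 and 222 CPM in hMut. In 7 of 9 hMut hearts it lay below every Ctrl heart, hMut 4 lay within the Ctrl range, and hMut 2 lay above it. The log2 fold change of -0.45 ± 0.18 (SE) did not pass (edgeR adjusted p = 0.130), with the spread in hMut (SD 48.5 CPM, n = 9) wider than in Ctrl (SD 11.9 CPM, n = 8). It passed in 2 of the 29 alternative fits, limma-voom with quality weights and edgeR without hMut 2. Without hMut 6 and 9, the hearts where it was lowest, the value was -0.25 (edgeR adjusted p = 0.103).

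The ratio of the copy to its parent within each heart does not depend on scaling between libraries. The log2 ratio of Rpl3l over Rpl3 was 0.33 ± 0.18 (SD, n = 8) in Ctrl and -0.68 ± 0.93 (SD, n = 9) in hMut, lower in 8 of 9 hMut hearts than in every Ctrl heart. The difference of -1.01 gave an exact two-sided permutation p = 0.00346 over the 24310 splits of the hearts, and 0.0138 adjusted over the 4 pairs tested. Without hMut 6 and 9 it was -0.60 (exact permutation test, adjusted p = 0.0367). Per length, Rpl3l made up 66.5% to 73.8% of both genes together in Ctrl. It made up 55.8% to 63.9% in hMut 1, 3, 4, 5, 7 and 8, 33.6% in hMut 9, 27.5% in hMut 6 and 76.2% in hMut 2. So Rpl3l was the larger of both per length in every Ctrl heart and in 7 hMut hearts, and the smaller in hMut 6 and 9. These are the hearts with the lowest cardiomyocyte and highest myeloid and fibroblast marker sums, and the part of these markers in the ratio was not tested. In the 7 other hMut hearts, hMut 2 among them, the cardiomyocyte marker sums ran from 54859 to 67284 CPM.

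**Figure D3:**
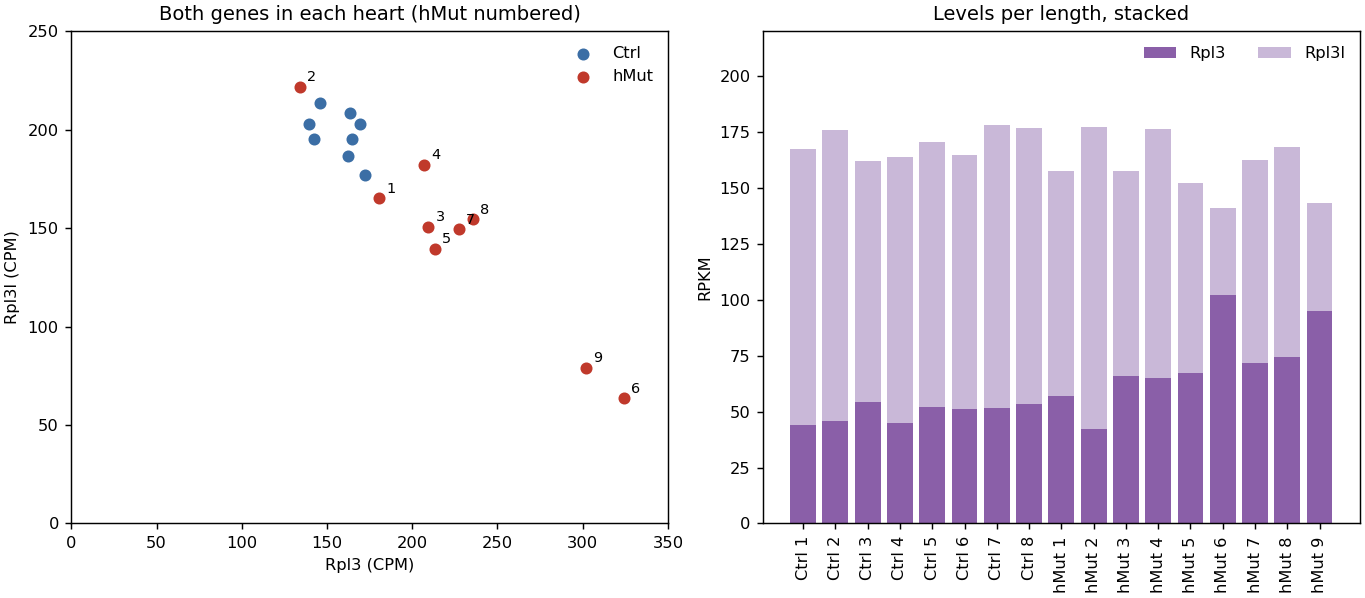
Left, CPM of Rpl3 against Rpl3l in each heart, Ctrl in blue and hMut in red with its replicate number. Right, the RPKM of both genes stacked for each heart. Ctrl hearts cluster at high Rpl3l and low Rpl3, hMut 2 lies beyond them at 222 CPM of Rpl3l, and hMut 6 and 9 lie at the other end with 63.6 and 79.1 CPM.

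The remaining copies moved less. Rpl22l1, the copy of Rpl22, fell relative to its parent: the log2 ratio was -2.75 ± 0.11 (SD, n = 8) in Ctrl and -2.93 ± 0.16 (SD, n = 9) in hMut, a difference of -0.18 (exact permutation test, adjusted p = 0.0402), lower in 6 of 9 hMut hearts than in every Ctrl heart. This was lost without hMut 6 and 9 (-0.16, exact permutation test, adjusted p = 0.104) and when any of 13 single libraries was left out. Neither gene passed alone, Rpl22l1 at -0.10 ± 0.07 (SE, edgeR adjusted p = 0.355) and Rpl22 at 0.08 ± 0.04 (SE, edgeR adjusted p = 0.220). Rps27l, a copy of Rps27 known as a p53 target, lay at 33.4, 36.5 and 39.0 CPM in Ctrl and at 37.9, 39.7 and 43.2 CPM in hMut, with 7 of 9 hMut hearts above every Ctrl heart (log2 fold change 0.13 ± 0.04, SE, edgeR adjusted p = 0.0602). DESeq2 called it (adjusted p = 0.0273). Its ratio to Rps27 differed by 0.18 (exact permutation test, adjusted p = 0.319), and that of Rpl7l1 to Rpl7 by 0.04 (exact permutation test, adjusted p = 0.319). Rpl10l, Rpl36al and Rpl39l were too low to be compared, while Rpl36a itself had a log2 fold change of 0.13 ± 0.05 (SE, edgeR adjusted p = 0.133).

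Rps27 itself varied with a copy, a pair chosen after its values were seen. Rps27rt, a retrotransposed gene annotated as protein-coding but outside the naming rule, lay at 32.4 CPM in Ctrl 6, 38.2 CPM in hMut 3 and 29.0 CPM in hMut 5, and at 7.29 to 17.1 CPM in the other hearts. Rps27 was at its lowest in the same 3 hearts, at 32.8, 29.1 and 27.7 CPM, against 43.5 CPM or more elsewhere. The sum of both stayed between 57.0 and 69.6 CPM in Ctrl and between 56.7 and 67.7 CPM in hMut. Rps27 alone had a log2 fold change of -0.02 ± 0.14 (SE, edgeR adjusted p = 0.931). Whether these hearts carry another sequence at one of the genes was not tested.

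**Figure D4:**
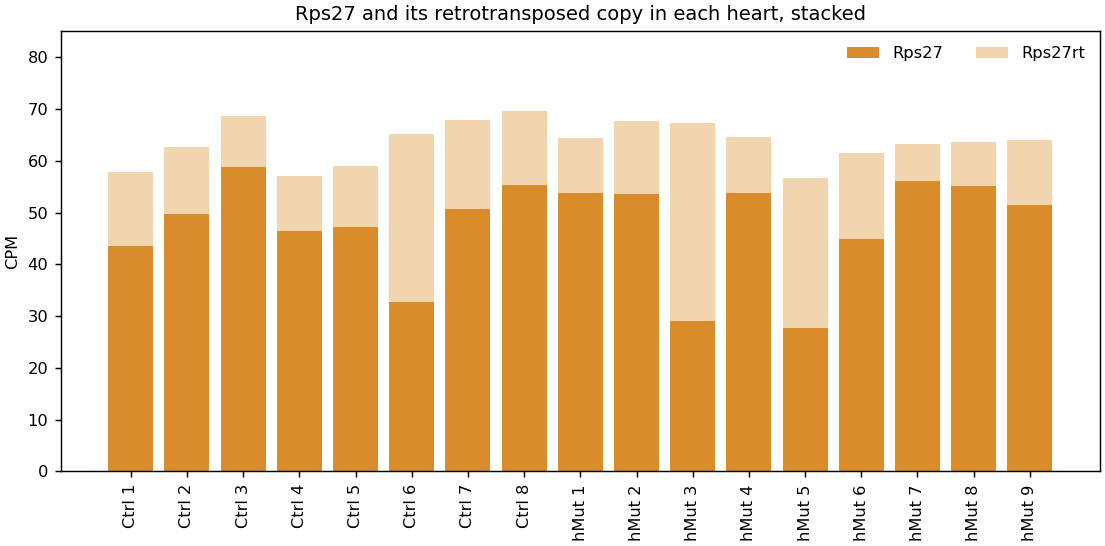
CPM of Rps27 (dark) and of its retrotransposed copy Rps27rt (light), stacked, in each heart. The copy is high and the parent low in Ctrl 6, hMut 3 and hMut 5, and the stacks stay between 56.7 and 69.6 CPM.

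Members with roles outside the ribosome or with unusual spread are given by value. Rpl5 and Rpl11 form the particle with the small ribosomal RNA of the large subunit that can also bind MDM2, and had log2 fold changes of 0.04 ± 0.04 (SE, edgeR adjusted p = 0.601) and 0.10 ± 0.04 (SE, edgeR adjusted p = 0.122). Rpl41, the shortest protein of the ribosome, had 0.07 ± 0.08 (SE, edgeR adjusted p = 0.592). Rpl7a had the second highest value of all members, 0.36 ± 0.17 (SE), but did not pass (edgeR adjusted p = 0.196): it ranged from 68.8 to 135 CPM within Ctrl and from 66.2 to 182 CPM within hMut, a coefficient of variation of 24.5% and 27.0%. Rps27a, which is made as a fusion with ubiquitin, ranged from 34.0 to 93.8 CPM in Ctrl and from 37.5 to 116 CPM in hMut, with no difference between the means (log2 fold change 0.00 ± 0.27, SE, edgeR adjusted p = 0.994). In Ctrl 3, Ctrl 4 and hMut 4, where Rps27a was at its highest, its pseudogene Rps27a-ps3 was at its lowest, between 2.25 and 2.66 CPM, against 3.65 to 7.98 CPM in the other hearts.

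The rest of the translation machinery was counted over 9 lists in the same fit, of which 40 of the 207 tested entries were called higher and 0 lower by edgeR, where 3.48% of all tested genes were called higher. When hMut 6 and 9 were left out, 22 entries were called higher, beside 1.96% of all genes. DESeq2 called 1 initiation factor lower, beside 500 of the 16336 genes it tested. The ribosome biogenesis factors, which process ribosomal RNA and assemble the subunits, had 26 of 78 called higher (33.3%) and a median log2 fold change of 0.15. Of these, 14 were called without hMut 6 and 9, with a median of 0.12. Nip7, which acts in pre-rRNA processing, lay at 11.4, 13.3 and 13.8 CPM in Ctrl and at 13.8, 16.3 and 18.4 CPM in hMut (log2 fold change 0.33 ± 0.06, SE, edgeR adjusted p = 0.00385). Pwp2, of the small subunit processome, also rose in all 9 hMut hearts above every Ctrl heart (log2 fold change 0.25 ± 0.05, SE, edgeR adjusted p = 0.00497), and Bop1, of large subunit assembly, in 7 of 9 (0.38 ± 0.06, SE, edgeR adjusted p = 0.00143). The RNA polymerase I list, which makes the ribosomal RNA precursor, had 0 of 14 called by edgeR or DESeq2, 1 at an unadjusted p under 0.05 (Taf1b), and a median of 0.04. The RNA product itself is not measured in polyadenylated RNA.

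Among the genes outside the rule, the ribosomal proteins Rack1 and Fau had log2 fold changes of 0.12 and 0.08, and their list had 0 of 3 called by edgeR, 1 at an unadjusted p under 0.05 and 1 by DESeq2. Of the 16 other mRNAs known to carry a TOP tract, 2 were called. Eef1a1, which brings aminoacyl-tRNA to the ribosome, lay at 789, 807 and 950 CPM in Ctrl and at 750, 1190 and 1791 CPM in hMut, with 7 of 9 hMut hearts above every Ctrl heart and 1 below (log2 fold change 0.55 ± 0.13, SE, edgeR adjusted p = 0.0224, and 0.37 without hMut 6 and 9, edgeR adjusted p = 0.0278). The other was Eif3a (0.27 ± 0.07, SE, edgeR adjusted p = 0.0407), which missed the threshold without hMut 6 and 9 (0.19, edgeR adjusted p = 0.0861). The median of the list was 0.08.

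Initiation factors had 5 of 36 called, with a median of 0.03. Eif2s2, a subunit of the factor that carries initiator tRNA, and the helicase Eif4a1 were higher in all 9 hMut hearts than in every Ctrl heart (log2 fold changes 0.38 ± 0.06 and 0.29 ± 0.06, SE, edgeR adjusted p = 0.00122 and 0.0111), and Eif3c in 8 of 9 (0.29 ± 0.05, SE, edgeR adjusted p = 0.00385). Of the 6 genes placed on the elongation and termination list, which does not hold such factors alone, 2 were called. These were Eef1e1 (0.38 ± 0.06, SE, edgeR adjusted p = 0.00167) and the ribosome recycling factor Abce1 (0.17 ± 0.04, SE, edgeR adjusted p = 0.0400). Abce1 missed the threshold without hMut 6 and 9 (0.14, edgeR adjusted p = 0.0995). The mTORC1 and translation control list had 3 of 20 called with a median of 0.00. Sesn2, a stress-induced inhibitor of mTORC1, lay at 5.07, 5.69 and 6.27 CPM in Ctrl and at 7.07, 14.2 and 23.1 CPM in hMut (log2 fold change 1.29 ± 0.20, SE, edgeR adjusted p = 0.000994). Myc, a transcription factor known to drive ribosome biogenesis, lay at 1.73, 3.38 and 4.88 CPM in Ctrl and at 3.49, 8.43 and 16.8 CPM in hMut (1.52 ± 0.27, SE, edgeR adjusted p = 0.00359). Eif4ebp1, a repressor of cap-dependent initiation, rose by 0.44 ± 0.11 (SE, edgeR adjusted p = 0.0309) but missed the threshold without hMut 6 and 9 (0.34, edgeR adjusted p = 0.0786).

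In the list of chaperones and importers of ribosomal proteins, 1 of 14 was called, Rpf2, which brings the particle of Rpl5 and Rpl11 to the large subunit (0.31 ± 0.06, SE, edgeR adjusted p = 0.0101). In the ribosome quality control list, 1 of 20 was called, Ascc2, of the complex that splits collided ribosomes (0.28 ± 0.07, SE, edgeR adjusted p = 0.0267), which missed the threshold without hMut 6 and 9 (0.20, edgeR adjusted p = 0.0539).

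**Figure D5:**
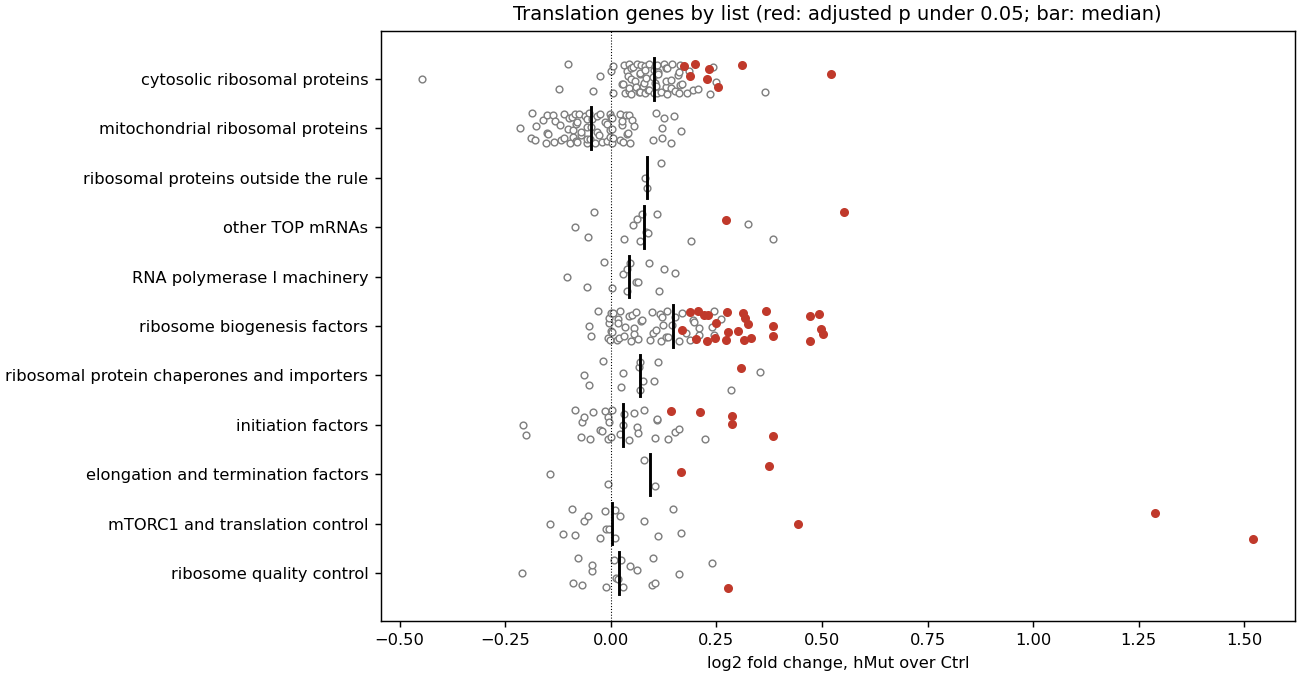
Log2 fold change of hMut over Ctrl for each tested gene of the cytosolic and mitochondrial ribosomal proteins and of the 9 translation lists, with red points for an adjusted p under 0.05 (edgeR) and a black bar at the median of each list. The cytosolic ribosomal proteins centre on 0.10 and the mitochondrial ones on -0.05, the biogenesis factors hold 26 of the red points, and the points at 1.29 and 1.52 are Sesn2 and Myc.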

How the data were processed

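Total RNA of heart tissue from 17 mice was extracted with the RNeasy Mini Kit, enriched for polyadenylated RNA and sequenced on a NovaSeq X Plus. Per the labels, the submitters' processing notes name fastp, HISAT2 2.2.1, GRCm39, featureCounts 2.0.6 and DESeq2 1.42.0. The authors deposited unnormalized read counts for each gene, beside a gene length, used for RPKM. The annotation release, the strand setting and the treatment of reads with several matches are not given in the sources used here. Genes were tested across the whole table with edgeR 4.0.16 (R 4.3.3): TMM scaling, filterByExpr, genotype as the only term, quasi-likelihood test, Benjamini-Hochberg adjustment over all tested genes, threshold 0.05. The test was tried on simulated counts. Copy to parent ratios (log2 of CPM with 0.5 added) were compared by an exact two-sided permutation test, adjusted over 4 pairs. DESeq2 1.42.0, limma 3.58.1 and other settings served as alternatives. Sequences were read from GRCm39 with GENCODE vM39.

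The members and gene lists were chosen with earlier results of these data known. Members are named if they passed the threshold, did not overlap between groups, had one of the 3 highest or lowest fold changes or levels per length, belong to a copy and parent pair, or have a role of their own. Genes of the lists are named if among the 3 of smallest p. Rps27rt, Rps27a-ps3, Rps10-ps2 and the pseudogenes of Rpl17 and Rpl21 were named after their values were seen. With no statement on litters or cages, p-values measure the spread between these 17 hearts. A gene that the rule would name and a gene of the lists are not reported here.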

Additional observations from a re-analysis of the deposited data

Results flagged for a closer look

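Of 70 groups of hearts examined (the named members, the ratios and the summed level, in Ctrl and in hMut), 7 held 1 heart far from the rest of its group by Dixon's test, where chance gives about 5%. Rplp2 was lowest in Ctrl 1 at 87.0 CPM, with the other Ctrl hearts between 92.1 and 96.5 CPM. Rpl21 was highest in Ctrl 3 at 16.8 CPM (others 7.90 to 10.9 CPM) and in hMut 4 at 20.5 CPM (others 8.83 to 11.5 CPM), and Rps27a in hMut 4 at 116 CPM (others 37.5 to 63.0 CPM). Rpl22l1 was highest in Ctrl 3 at 20.6 CPM (others 15.2 to 17.7 CPM) and in hMut 1 at 19.9 CPM (others 13.95 to 16.8 CPM). The log2 ratio of Rps27l over Rps27 was highest in Ctrl 6 at 0.19 (others -0.63 to -0.29), the Ctrl heart with the lowest Rps27 and the highest Rps27rt. The causes were not tested.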

How the results depend on the processing

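The number of members called depended on the setting, and the direction on the scaling. Scaled on the summed members, 44 of 81 members were above 0 in place of 76, and 32 had the other sign. In each of the other 28 settings 72 to 77 were above 0 and at most 4 had the other sign. Beside the 8 members higher and 0 lower by edgeR with TMM, there were 3 higher with upper-quartile factors, 3 with no filter on low counts, 4 with sex as a covariate, 2 when libraries were scaled on the summed members (which moved the median of all genes to -0.09), 3 without hMut 6 and 9 (an alternative chosen after seeing the data), 16 with DESeq2, and 12 higher and 1 lower (Rpl3l) with limma-voom. The calls over all genes moved too, from 564 higher with edgeR and TMM. They were 455 with upper-quartile factors, 395 with no filter, 433 with sex and 274 scaled on the members. Without hMut 6 and 9 they were 316, with DESeq2 1002 and with limma-voom 1175 (906 lower). Over the 29 settings Rpl10 was called in 29, Rpl3 in 25, Rplp1 in 14, Rpl39 in 13, Rps26 in 11, Rpl13a in 10 and Rpsa in 9. Leaving out 1 library gave 2 to 15 members higher and 0 to 1 lower. The count stayed within 1.5 times of 8 without Ctrl 3, hMut 3 or hMut 8 and moved further without any other library, down to 2 without Ctrl 1 or hMut 9 and up to 14 without hMut 1 and 15 without hMut 2. Replicate numbers do not pair the hearts: same-numbered hearts correlated between -0.26 and 0.40, and of the 8 numbers only number 8 correlated best with its own. With the replicate block, 1 member was higher (Rpl10), beside 160 of all genes. In that setting Rpl3l over Rpl3 was -0.86 (adjusted p = 0.0625, exact sign-flip permutation test) and Rpl22l1 over Rpl22 -0.18 (adjusted p = 0.0938, same exact test). Without 1 library, Rpl3l over Rpl3 lay between -1.19 and -0.81 and stayed past the threshold each time, and Rpl22l1 over Rpl22 lay between -0.23 and -0.15, past the threshold only without Ctrl 4, Ctrl 8, hMut 1 or hMut 2. Without hMut 6 and 9 the latter was -0.16, and 22 list genes were higher in place of 40. DESeq2 called 1 list gene lower, beside 500 of the 16336 genes it tested. The summed level differed by 2251 CPM without the TMM factor, in place of 795 CPM, and by 614 CPM without hMut 6 and 9.

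Of the 30 named members tested, 14 turned sign in 45 values, none of them called. Scaled on the members, the named members of the other sign were Rplp0 -0.0099, Rpl7 -0.061, Rps4x -0.011, Rps6 -0.0047, Rpl5 -0.053, Rps15 -0.021, Rpl41 -0.025, Rpl22 -0.011, Rplp2 -0.086, Rps27a -0.093, Rpl7l1 -0.024 and Rpl24 -0.044. Without hMut 6 and 9, Rpl41 was -0.0025 and Rps10 -0.045. Rplp2 was -0.011 with upper-quartile factors, -0.0048 with limma-voom and -0.0019 on nuclear protein-coding genes. Rps27a was -0.0069 with upper-quartile factors, -0.00034 with DESeq2, -0.0018 on nuclear protein-coding genes and -0.0058 with sex. Rps10 was -0.032 with limma-voom and -0.018 with the replicate block, and Rpl24 was -0.020 with limma-voom. Over the fits without 1 library the values ran from -0.011 to 0.016 for Rplp2, -0.21 to 0.15 for Rps27a, -0.089 to 0.048 for Rps27, -0.0091 to 0.25 for Rps10 and -0.025 to 0.16 for Rpl24. The causes were not tested.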
